A study of Mus musculus with 12 samples.

Results

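CD73+ and CD73- newly generated regulatory T cells (Treg) of the mouse thymus were compared by RNA sequencing in 6 of the 12 libraries of a study of thymic Treg ontogeny, 3 CD73+ and 3 CD73-. The comparison was made over the 12660 of 13207 listed genes that have values in these 6 libraries, and 10734 of them passed a filter on low values and were tested. All mice were C57BL/6, all received tamoxifen at 10 μg per g of body weight in olive oil by intraperitoneal injection, and the thymus was taken 7 days later. Both groups were sorted as CD4+ tdTomato+ GFP+ thymocytes and differ by 1 gate, surface CD73. The other 6 libraries came from newly generated conventional T cells (Tconv, CD4+ tdTomato+ GFP- CD73-) and from bulk Treg (CD4+ tdTomato- GFP+, not divided by CD73), with 3 libraries in each group. The tdTomato label marks cells in which a tamoxifen-dependent recombination took place and that then kept the label, so tdTomato+ cells are read as recent products. The driver of that recombination is not given in the sources used here. A letter in each library name, A, B or D, serves as the replicate name, and values below are given in that order. Whether the 3 libraries of a group stem from different mice is not stated in the labels. A p-value here therefore sets a difference against the variation among libraries, part of which may be technical.

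CD73 is an enzyme on the outer cell membrane, encoded by Nt5e, that converts adenosine monophosphate to adenosine, a signal that dampens immune responses. It works after CD39, encoded by Entpd1, which breaks down extracellular adenosine triphosphate and diphosphate. Treg develop in the thymic medulla from CD4+ thymocytes that receive strong T cell receptor and interleukin-2 signals, and Foxp3 is their lineage transcription factor. Mature Treg also recirculate from the periphery to the thymus, which is why labelling by time is used to separate new from older cells.

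Values are the deposited log2 CPM, that is, counts relative to library size. The effective depth read from the lowest value of each library was 11000000 (CD73- D) to 17300000 (CD73- B) counts, so 3 counts correspond to a log2 CPM between -2.30 and -1.65. A gene under that level is not distinguishable from absence in that library, and these limits cover counting error only. Lars2, a mitochondrial leucyl-tRNA synthetase gene, took 22.9% to 30.2% of a library's CPM, and the origin of those reads was not tested. Spearman correlations across genes were 0.9915 to 0.9952 within a group and 0.9867 to 0.9927 between groups.

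The libraries showed the sorted phenotype. Nt5e (ENSMUSG00000032420.8), which the gate sets, was 7.20, 7.45 and 7.23 in CD73+ libraries A, B and D and 5.54, 5.71 and 5.37 in the CD73- libraries. The groups do not overlap, and Nt5e is a check of the sort and not a finding. CD73- cells still held Nt5e messenger RNA, at 5.54 ± 0.17 (SD, n = 3) log2 CPM. Foxp3, the gene that the GFP reporter is read as marking, was 9.20, 9.25 and 9.12 in CD73+ and 9.20, 9.16 and 9.11 in CD73- cells, and the difference was not past the threshold (0.03, SE 0.05, adjusted p = 0.82). Cd4, the coreceptor of the gate, was 8.46, 8.33 and 8.47 against 8.57, 8.52 and 8.55 (-0.13, SE 0.05, adjusted p = 0.289). Cd3d, Cd3e, Cd3g and Ptprc, which encode chains of the T cell receptor complex and the pan-leukocyte CD45, were also expressed in all 6 libraries without a difference past the threshold, and the summed CPM of the 7 measured of 10 defining genes was 4324.6 to 4530.4 in CD73+ and 4412.6 to 4696.9 in CD73- cells.

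Linear models were fitted with limma to all tested genes, and a gene is called where its Benjamini-Hochberg adjusted p is under 0.05. Of the 10734 genes, 151 were called (1.41%), 116 higher (1.08%) and 35 lower (0.326%) in CD73+ cells, and 1530 had an unadjusted p under 0.05. Every called gene is protein coding, and in all 151 the groups did not overlap and the 3 letter pairs differed in the same direction. Across all tested genes, non-overlapping groups occurred in 18.2% (9.8% higher, 8.42% lower) and 3 letter pairs in the same direction in 40%. The changes were unequal in size: genes called higher had a median log2 difference of 0.61, with 28 of 116 at 1 or more and 50 under 0.5, and genes called lower had a median of -0.32, with 1 of 35 beyond -1 and 32 smaller than 0.5. The median over all tested genes was 0.003 and 50.6% of them were higher by sign. In the authors' deposited table, an equal number of genes, 151, also had an adjusted p under 0.05 (1.19% of the 12660 genes), 137 of them shared with the 151 called here, and its log2 fold changes correlated with those of the present fit at 0.994 across genes.

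**Figure D1:**
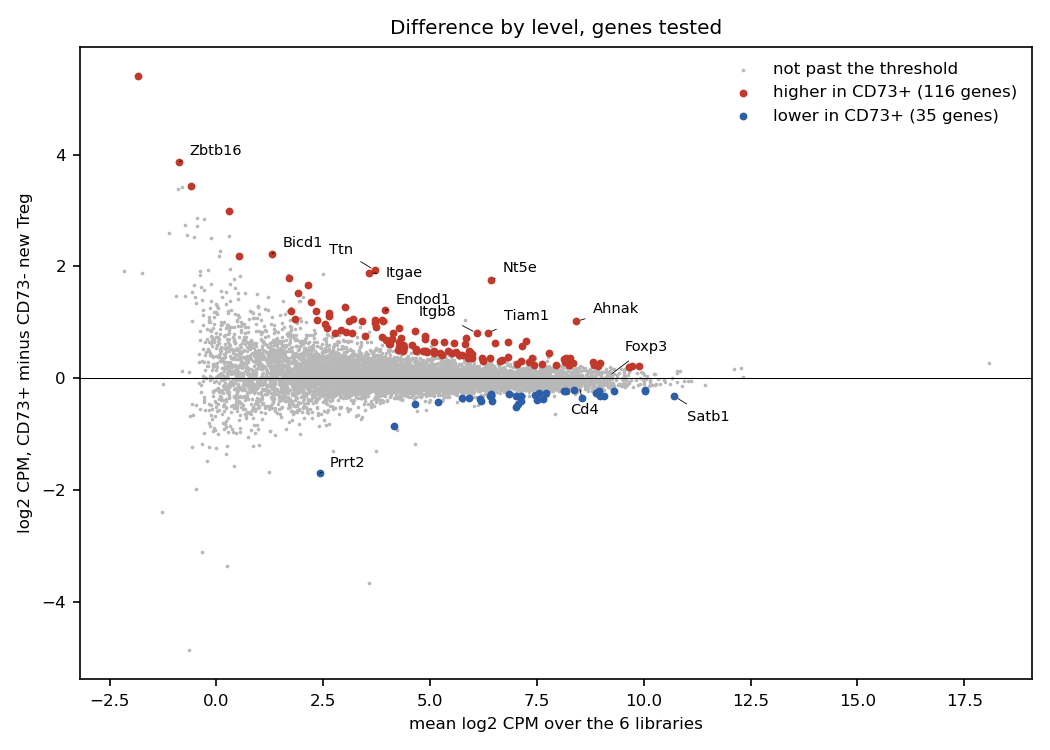
Each point is a tested gene, with its mean log2 CPM over the 6 libraries on the horizontal axis and the log2 difference (CD73+ minus CD73-) on the vertical axis; coloured points are the 116 genes called higher and the 35 called lower. Genes called lower lie at higher levels (median log2 CPM 7.13) and closer to 0 than genes called higher (median 4.92).

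The 2 directions also sat at different levels. Genes called lower had a median log2 CPM of 7.13 over the 6 libraries and a median exon length of 9844 bases, against 4.92 and 4675.5 for genes called higher and 4.66 and 4600 for all tested genes. At a mean log2 CPM of 8 or more, 15 of 567 genes were called higher and 12 lower, while under 2, 10 of 1452 were called higher and 0 lower. The median standard error was 0.382 under a log2 CPM of 2 and 0.0524 at 8 or more, so a difference of a given size is called more readily at a high level. Of 153 tested genes that differed by 1 or more on the log2 scale, 29 were called. The 31 genes that passed the filter through 1 group alone had to differ, and 4 of the genes called higher are of that kind, namely Gm44502, Zbtb16, Serpina3g and Actg2.

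The number of calls depended on single libraries. Without CD73+ A, 23 genes were called higher and 3 lower, without CD73+ B 36 and 5, without CD73- A 47 and 3, without CD73- D 55 and 6, and without CD73+ D 74 and 36. Without CD73- B, 147 were called higher and 54 lower. All 6 such fits kept 21 genes, all of them higher: Bicd1, Ttn, Itgae, Nt5e, Endod1, Hist2h3b, Hdac9, Eea1, Ahnak, Peli2, Ston1, Tiam1, Itgb8, Hist1h4m, Il7r, H2-Ob, Gvin1, Nrp1, Capg, Myo1e and Pim1. No gene called lower was kept in all 6. The intensity trend of the fit lets the variance prior follow the level, and without it 8 genes were called higher and 0 lower, with Nt5e, Itgae, Ahnak, Ttn, Endod1 and Hist2h3b the 6 of the 21 still called.

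**Figure D2:**
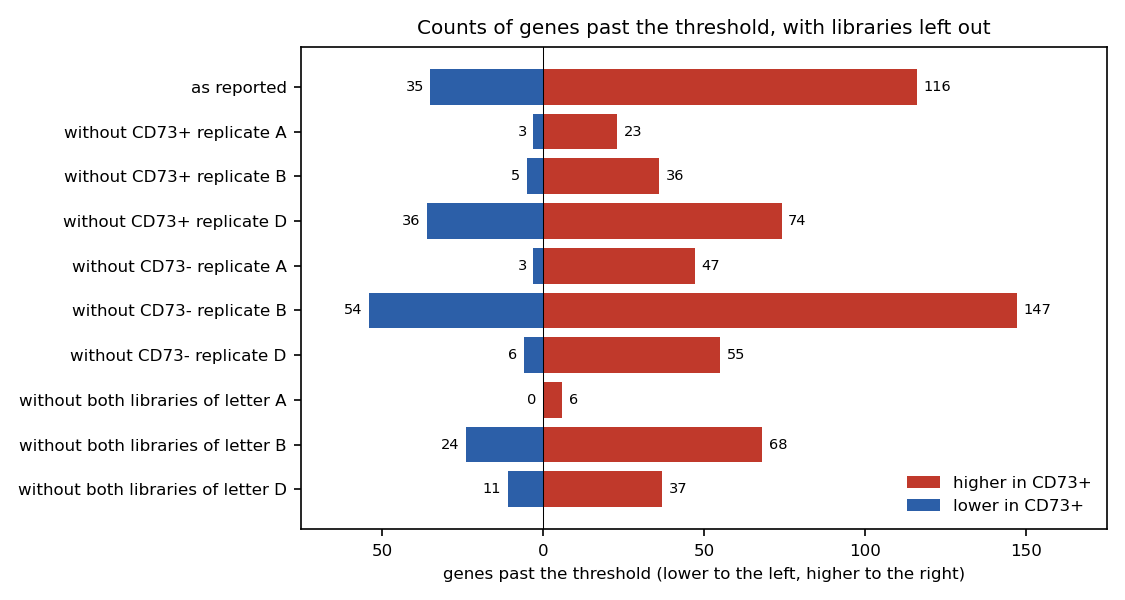
Bars give the number of genes called higher and lower in CD73+ cells with all 6 libraries (116 and 35) and after leaving out single libraries or both libraries of a letter. The counts run from 6 higher and 0 lower without both A libraries to 147 higher and 54 lower without CD73- B.

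Integrin genes were called in both directions. Itgae (ENSMUSG00000005947.11, chromosome 11, 73090583 to 73147446, plus strand), the alpha E chain of the CD103 integrin that binds E-cadherin on epithelium, was 4.64, 4.48 and 4.39 in CD73+ and 2.76, 2.58 and 2.53 in CD73- libraries. Each CD73+ library was above each CD73- library, and the difference was 1.88 on the log2 scale (SE 0.14, adjusted p = 6.02e-06), a 3.68-fold difference of the means. Itgb8, the beta chain that pairs with integrin alpha V to release active transforming growth factor beta, was 6.33, 6.72 and 6.44 against 5.50, 5.90 and 5.67 (0.81, SE 0.11, adjusted p = 0.0021). The groups did not overlap in either gene. Itgb1, a beta chain shared by many integrins, was 6.16, 6.20 and 6.13 against 5.82, 5.88 and 5.69 (0.37, SE 0.07, adjusted p = 0.0232), a call that was lost without any library but CD73- B (adjusted p 0.0517 to 0.111). Itgb3, the beta chain of the vitronectin receptor, was lower in CD73+ cells, at 6.21, 6.19 and 6.36 against 6.65, 6.63 and 6.70 (-0.41, SE 0.07, adjusted p = 0.0099), and lost its call without CD73+ A (0.0621). The integrin list held 18 measured genes, 15 tested, with 3 called higher and 1 lower and by sign 7 of the tested members were higher and 8 lower. Over all tested genes 1.08% were called higher and 0.326% lower, and Itgae is a given marker of the comparison. For the integrin list, values were as follows. The median log2 difference was 0.085 over the measured members (0.0067 over all measured genes) and -0.077 over the tested members, so its sign rests on 3 untested genes at low levels. Leaving out 1 library gave 2 to 3 higher and 0 to 1 lower.

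**Figure D3:**
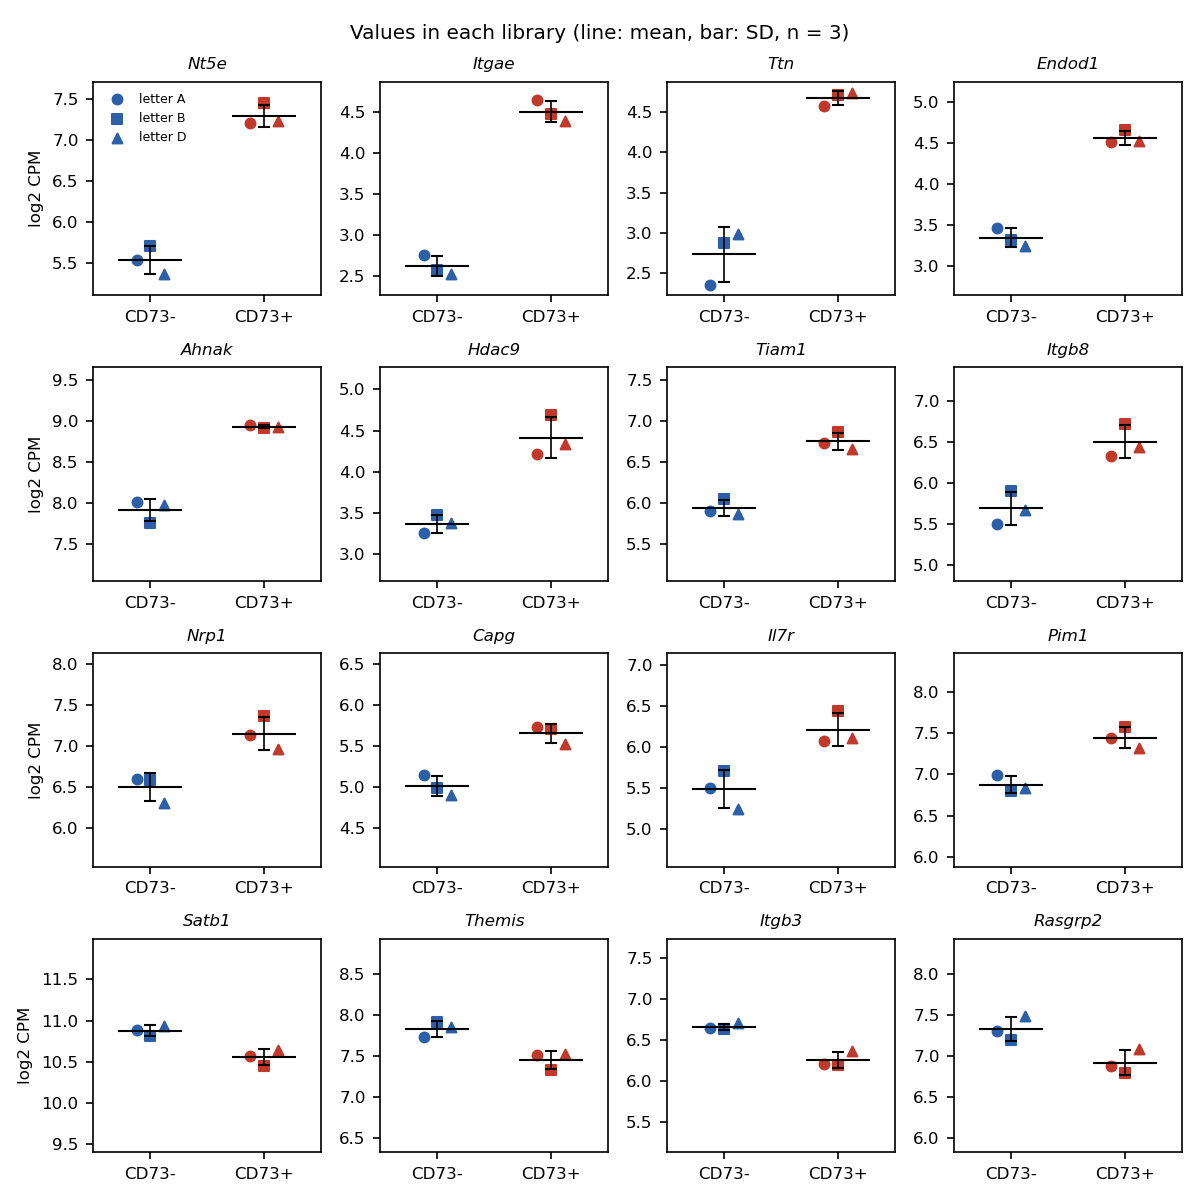
Each panel gives the deposited log2 CPM of a gene in CD73+ and CD73- libraries, with a marker for each letter, a line at the mean and a bar of 1 SD (n = 3). Itgae lies at 4.39 to 4.64 in CD73+ and 2.53 to 2.76 in CD73- libraries, while Satb1 and Themis lie lower in CD73+ cells by less than 0.5.

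Genes that act on the cytoskeleton are described singly here, with no count over a group. Ahnak, a giant scaffold protein bound to the membrane cytoskeleton, was 8.95, 8.92 and 8.93 against 8.01, 7.76 and 7.98, with means of 8.93 ± 0.02 and 7.92 ± 0.14 (SD, n = 3). The CD73+ libraries were nearly equal and all above the CD73- libraries (1.02, SE 0.06, adjusted p = 5.86e-07), and Ahnak is at a high level, with 7485.6 to 7967.5 estimated counts per CD73+ library and 2777.8 to 3742.6 per CD73- library. Tiam1, an exchange factor that activates Rac1, was 6.73, 6.86 and 6.66 against 5.90, 6.05 and 5.87 (0.81, SE 0.07, adjusted p = 5.56e-05). Capg, which caps the ends of actin filaments, was 5.73, 5.71 and 5.52 against 5.14, 4.99 and 4.90 (0.64, SE 0.09, adjusted p = 0.00389). These 3 genes did not overlap between the groups. Myo1e, an unconventional myosin, was 6.09, 6.18 and 6.07 against 5.42, 5.58 and 5.51 (0.61, SE 0.07, adjusted p = 0.00126). Coro2a, a coronin, was 6.81, 7.14 and 6.58 against 6.15, 6.40 and 6.07 (0.64, adjusted p = 0.0166) and lost its call without CD73+ A, CD73- A or CD73- D (0.0559 to 0.0919). Dock10, an exchange factor for Cdc42, was called lower (-0.22, adjusted p = 0.0451), with adjusted p 0.139 to 0.244 without CD73+ A, CD73+ B, CD73- A or CD73- D.

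The sequences upstream of Ahnak and Tiam1, both given as markers of the comparison, are shown with those of Hdac9, also called higher, and Themis, called lower. Each run is the 250 bases before an annotated transcription start from RefSeq (GRCm38.p6), printed 5′ to 3′ on the strand of the gene, and capitals mark a match to the AP-1 motif TGANTCA. A match is a description of letters and not a bound site. Tiam1 and Hdac9 each have a match in the start region printed and a second annotated start without it, and Ahnak and Themis have none.

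Ahnak chr19:8989034-8989283 (plus strand): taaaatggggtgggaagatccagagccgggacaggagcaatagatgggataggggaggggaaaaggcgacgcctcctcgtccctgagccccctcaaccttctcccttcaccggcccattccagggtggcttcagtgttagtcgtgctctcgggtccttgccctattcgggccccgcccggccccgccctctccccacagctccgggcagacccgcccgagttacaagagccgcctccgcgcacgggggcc

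Tiam1 chr16:89974700-89974949 (minus strand): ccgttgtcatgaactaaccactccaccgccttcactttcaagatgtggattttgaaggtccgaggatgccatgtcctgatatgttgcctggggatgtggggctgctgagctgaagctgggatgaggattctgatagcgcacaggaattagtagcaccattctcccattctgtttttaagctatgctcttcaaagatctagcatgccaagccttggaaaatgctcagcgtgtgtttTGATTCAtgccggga

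Hdac9 chr12:34528890-34529139 (minus strand): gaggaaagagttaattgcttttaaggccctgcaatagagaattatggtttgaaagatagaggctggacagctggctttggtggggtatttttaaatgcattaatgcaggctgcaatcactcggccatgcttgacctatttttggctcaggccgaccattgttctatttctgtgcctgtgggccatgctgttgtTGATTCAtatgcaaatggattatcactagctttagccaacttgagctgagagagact

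Themis chr10:28668110-28668359 (plus strand): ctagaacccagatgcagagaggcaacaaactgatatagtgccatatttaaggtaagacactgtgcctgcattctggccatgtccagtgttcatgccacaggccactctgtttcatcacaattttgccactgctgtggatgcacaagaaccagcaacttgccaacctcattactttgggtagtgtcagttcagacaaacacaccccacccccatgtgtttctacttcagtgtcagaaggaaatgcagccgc

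The sources used here do not state whether counting used the strand, and Itgae overlaps Haspin on the opposite strand. Over all windows of 300 bases (250 before and 50 after a start, both strands searched), TGANTCA occurred in 7 of 108 windows of the 84 of 116 genes called higher that matched the RefSeq table (6.48%), 0 of 38 windows of the 25 of 35 called lower and 4.61% of 10884 windows of 8527 tested genes. The ETS motif CCGGAAG occurred in 11.1% of windows of genes called higher, 7.89% of those called lower and 19.3% of all. RUNX letters (TGTGGT) occurred in 12%, 7.89% and 12.7%, and STAT letters (TTCNNNGAA) in 7.41%, 10.5% and 6.98%. The median number of CG pairs in a window was 18.5 for genes called higher, 12.5 for genes called lower and 21 for all tested genes. These shares are descriptions of start regions, and no test was made of them.

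Genes of extracellular adenosine and adenosine triphosphate (ATP) handling beyond the gate itself were called at smaller size and with less stability. Entpd1, which supplies the substrate of CD73, was 3.31, 3.42 and 2.94 in CD73+ and 1.84, 2.14 and 2.17 in CD73- libraries (1.17, SE 0.20, adjusted p = 0.0124). Adk, which phosphorylates adenosine inside the cell, was 5.10, 5.16 and 4.97 against 4.68, 4.58 and 4.52 (0.48, SE 0.10, adjusted p = 0.0232). P2rx7, an ATP-gated channel, was 5.84, 6.12 and 5.92 against 5.47, 5.70 and 5.45 (0.42, SE 0.09, adjusted p = 0.041). Groups did not overlap in these 3 genes. The call of Entpd1 was lost without CD73+ A, CD73+ B or CD73- A (adjusted p 0.0533 to 0.08), that of Adk without CD73+ A, CD73+ B, CD73- A or CD73- D (0.0533 to 0.121), and that of P2rx7 without any library but CD73- B (0.0692 to 0.166). Adora2a, the adenosine receptor that raises cyclic adenosine monophosphate (cAMP), was 3.73, 3.69 and 3.70 against 2.92, 2.75 and 3.50 and was not past the threshold (0.65, adjusted p = 0.108). Of 19 listed genes, 17 were measured and 16 tested, 4 were called higher with Nt5e included and 0 lower, and the median log2 difference over the measured genes was 0.16. Over all tested genes 1.08% were called higher and 0.326% lower, and Nt5e is set by the gate. The number called higher was 1 without CD73+ A, CD73+ B or CD73- A, 3 without CD73+ D or CD73- D and 4 without CD73- B. Of 22 listed cAMP phosphodiesterases and cyclases, which act downstream, 21 were tested and 0 were called, with a median of 0.01.

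S100a10, which joins annexin A2 at the membrane, was the 1 gene called of 14 tested S100, annexin and galectin genes, at 6.08, 6.25 and 5.99 against 5.78, 5.73 and 5.54 (0.42, adjusted p = 0.0287; 0.0585 to 0.125 without CD73+ A, CD73+ B, CD73- A or CD73- D). The median over the 17 measured members was 0.18.

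Part of the Treg signature was higher in CD73+ cells. Of 20 listed genes, 19 were measured and tested, 5 were called higher and 0 lower, the median was 0.19, and 18 were higher by sign. Over all tested genes 1.08% were called higher and 50.6% were higher by sign. In 11 of the 19 the CD73+ libraries lay wholly above the CD73- libraries, against 9.8% of all tested genes. The list was chosen with earlier results of these data known and holds Itgae, a given marker of the comparison. These counts are therefore a description and not a test. Besides Itgae and Capg, Nrp1, the neuropilin-1 receptor often used to mark thymic Treg, was 7.13, 7.36 and 6.96 against 6.60, 6.59 and 6.30 (0.65, SE 0.10, adjusted p = 0.00496). Lrrc32, whose product GARP holds latent transforming growth factor beta on the cell surface, was 8.07, 8.09 and 7.84 against 7.68, 7.54 and 7.43 (0.45, SE 0.08, adjusted p = 0.0107), and without CD73+ A its adjusted p was 0.0574. Cd83, a surface immunoglobulin-family molecule, was 5.08, 5.35 and 5.08 against 4.55, 4.83 and 4.73 (0.47, adjusted p = 0.0469; 0.0671 to 0.199 without any library but CD73- B). Core members of the signature did not pass: Il2ra, the alpha chain of the interleukin-2 receptor, differed by 0.17 (adjusted p = 0.271), Ikzf2, the Helios factor, by 0.09 (0.45) and Ctla4, an inhibitory receptor, by -0.03 (0.90). Without CD73+ A 3 members were called, and without CD73- B 7.

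Effector and tissue Treg genes were called in part and were otherwise at low levels. Of 30 listed genes, 28 were measured, 19 tested (3 through 1 group alone) and 5 called higher, 0 lower: Ahnak, Itgae, Entpd1, Ccr8 and Pdcd1. Over all tested genes 1.08% were called higher and 0.326% lower. The list holds Ahnak and Itgae, given markers of the comparison, and was chosen with earlier results of these data known. Its counts are therefore a description and not a test. The median over measured members was 0.71, and 0.45 over the members tested through both groups. Low-level members without a call, named after their values were seen, follow. Il1rl1, the interleukin-33 receptor, was -0.10, -0.19 and -0.51 in CD73+ and -4.81, -3.53 and -4.46 in CD73- libraries, where all 3 values lie under the level of 3 counts. It did not pass the filter and was not tested. Tigit, an inhibitory receptor, was 0.87, 0.67 and 0.85 against -4.81, -1.65 and -1.29 (adjusted p = 0.0896) and passed the filter through the CD73+ group alone. Fgl2, a secreted suppressive protein, was 1.38, 1.32 and 1.68 against -0.57, 0.24 and -0.76 (1.82, adjusted p = 0.0505). Without CD73+ A or CD73+ B the list held 2 called members.

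Among effector transcription factors, of 24 listed, 23 were measured and tested (1 through the CD73+ group alone), and Zbtb16, which encodes PLZF of innate-like T cells, was called higher: it was 0.71, 1.24 and 1.27 in CD73+ and -3.23, -0.72 and -4.46 in CD73- libraries (3.88, SE 0.90, adjusted p = 0.0498). CD73- A and D lie under the level of 3 counts, the estimated counts were 25, 36 and 38.9 against 1, 10 and 0, and the adjusted p was 0.119 without CD73- A and 0.0744 without CD73- D. Without any 1 of the CD73+ libraries the gene was not tested. Irf4, which supports effector Treg differentiation, was 6.14, 6.29 and 6.11 against 5.87, 5.95 and 5.66, just outside the threshold (0.35, adjusted p = 0.0576). The median over the list was 0.18.

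Chemokine receptors that guide cells within tissue were called at modest levels. Ccr6, Ccr8 and Ccr4 were called higher among 17 tested of 22 listed genes, and 0 lower, with a median of 0.16 over the measured members. The shares over all tested genes were 1.08% higher and 0.326% lower. Ccr8 was 4.35, 4.36 and 4.36 against 3.64, 3.83 and 3.74 (0.62, SE 0.12, adjusted p = 0.0172). Ccr6, the receptor of Ccl20, was 4.62, 4.67 and 4.49 against 3.96, 3.93 and 3.93 (0.65, SE 0.11, adjusted p = 0.0099). Ccr4 was 2.75, 2.98 and 2.90 against 1.63, 2.16 and 1.69 (1.05, SE 0.22, adjusted p = 0.0307). The groups did not overlap in these 3 genes. No chemokine or homing receptor was called without CD73+ A, and 1 was called without each of CD73+ B, CD73+ D, CD73- A and CD73- D. Ccr7 and S1pr1, which guide mature thymocytes to the medulla and out of the thymus, were -0.15 (adjusted p = 0.646) and -0.16 (0.19). Among cytokine receptors, Il7r, the interleukin-7 receptor chain, was the 1 gene called of 25 tested: it was 6.07, 6.44 and 6.11 against 5.50, 5.70 and 5.24 (0.73, SE 0.12, adjusted p = 0.00779), and all leave-one-out fits kept it.

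Of 20 tested genes induced by T cell receptor signals, 1 was called, with a median of 0.097 over the list. Over all tested genes 1.08% were called higher and 0.326% lower. By sign 16 of the 20 were higher, against 50.6% of all tested genes. In all 3 letter pairs 11 were higher and 3 lower. Pdcd1, the inhibitory receptor PD-1, was 4.92, 4.99 and 4.91 against 4.52, 4.37 and 4.38 (0.52, SE 0.10, adjusted p = 0.0175), and lost its call without CD73+ A, CD73+ B or CD73- D (0.0582 to 0.0856). Nr4a1, whose product rises with T cell receptor signal strength, was 7.97, 7.80 and 8.15 against 8.06, 7.68 and 8.25 (-0.02, adjusted p = 0.951). Cd5, a stable correlate of signal strength, was 8.82, 8.72 and 8.88 against 8.79, 8.64 and 8.86 (0.04, adjusted p = 0.808). The groups overlapped in both genes. Egr2 and Egr3 differed by 0.12 (0.59) and 0.28 (0.184). Among immunoglobulin-family receptors, Cd101 (0.49, adjusted p = 0.0166), Pdcd1 and Cd83 were called higher and Slamf6, a receptor of lymphocyte contact, lower at 6.87, 6.71 and 6.97 against 7.19, 7.07 and 7.23 (-0.31, adjusted p = 0.0484; 0.145 to 0.189 without CD73+ A, CD73+ B, CD73- A or CD73- D). Without CD73+ A or CD73+ B, 0 of this list were called higher, and without CD73+ D, CD73- A or CD73- D, 1. No TNF receptor superfamily gene was called of 18 tested.

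Several of the largest differences were in genes outside the lists of T cell function. Ttn, the giant muscle protein titin that is also transcribed in lymphocytes, was 4.57, 4.71 and 4.73 against 2.35, 2.87 and 2.99 (1.93, SE 0.16, adjusted p = 2.37e-05), with 369.1 to 433.0 estimated counts in CD73+ and 71.0 to 125.7 in CD73- libraries. Bicd1, an adaptor of the dynein motor, was 2.24, 2.57 and 2.43 against 0.04, -0.16 and 0.67 (2.23, SE 0.32, adjusted p = 0.00395). Endod1 was 4.51, 4.66 and 4.52 against 3.47, 3.32 and 3.25 (1.22, SE 0.12, adjusted p = 1.42e-04). CD73+ libraries lay above CD73- libraries throughout. Hdac9, a class IIa histone deacetylase, was 4.21, 4.69 and 4.33 against 3.25, 3.47 and 3.37 (1.05, SE 0.14, adjusted p = 0.00264). Eea1, an early endosome tether, was 3.82, 4.13 and 3.83 against 2.78, 2.99 and 2.92 (1.03, SE 0.15, adjusted p = 0.00398). Ston1, a stonin of vesicle traffic, was 5.02, 5.12 and 5.06 against 4.32, 4.03 and 4.29 (0.85, SE 0.11, adjusted p = 0.00128). In none of these 3 genes did the groups overlap. Pim1, a kinase gene induced by cytokine signals through STAT5, was 7.44, 7.58 and 7.32 against 6.99, 6.80 and 6.84 (0.57, SE 0.07, adjusted p = 0.00151). H2-Ob, a chain of the nonclassical class II molecule H2-O, was 5.30, 5.20 and 5.22 against 4.64, 4.47 and 4.51 (0.70, SE 0.09, adjusted p = 0.0019). These 8 genes were kept whichever library was left out. Nkg7, a gene of cytotoxic granules and a member of the CD8 and cytotoxic T cell markers, was 3.11, 3.06 and 2.79 against 1.16, 1.87 and 0.90 (1.68, SE 0.27, adjusted p = 0.00779; 0.0574 without CD73+ A). The olfactory receptor gene Olfr372 was 3.46, 3.97 and 3.50 against 1.94, 2.71 and 2.48 (1.27, SE 0.22, adjusted p = 0.0124; 0.0582 without CD73+ B); its near neighbour Olfr373 on chromosome 8 was also called higher, and reads of related copies may be split between them. Gvin1, a large interferon-inducible GTPase gene, was 7.60, 7.51 and 7.61 against 6.74, 6.84 and 7.12 (0.67, SE 0.08, adjusted p = 0.00121) and kept its call in all 6 leave-one-out fits. Chn2, a Rac-specific chimaerin, was 2.71, 3.06 and 2.93 against 1.21, 1.36 and 2.02 (1.37, SE 0.25, adjusted p = 0.0166; 0.0519 to 0.0763 without CD73+ A, CD73+ B, CD73+ D or CD73- A). Igfbp4, which binds insulin-like growth factors, was 4.48, 4.61 and 4.53 against 3.98, 4.0 and 3.98 (0.55, adjusted p = 0.02; 0.0577 to 0.0905 without any library but CD73- B). In Gvin1, Chn2 and Igfbp4 the CD73+ libraries lay above the CD73- libraries. Spock2 (1.20, adjusted p = 0.0124) and Snx9 (1.11, adjusted p = 0.0232) were also called higher. Spock2 lost its call without CD73+ A or CD73+ D, and Snx9 without CD73+ A, CD73+ B, CD73- A or CD73- D.

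Genes lower in CD73+ cells were small in size and included regulators of T cell development. Satb1, an organiser of chromatin in thymocytes, was 10.57, 10.45 and 10.64 against 10.88, 10.81 and 10.94 (-0.32, SE 0.06, adjusted p = 0.0124). Themis, a signalling protein of thymocyte selection, was 7.51, 7.33 and 7.53 against 7.73, 7.92 and 7.85 (-0.38, SE 0.07, adjusted p = 0.0136). The groups did not overlap in either gene. Txk, a Tec-family kinase, was 7.36, 7.16 and 7.41 against 7.64, 7.63 and 7.81 (-0.38, adjusted p = 0.0177). Rasgrp2, an exchange factor for Rap1, was 6.88, 6.79 and 7.09 against 7.31, 7.19 and 7.49 (-0.41, adjusted p = 0.0288). Flt3l, a growth factor of dendritic cell precursors, was 5.94, 5.96 and 6.11 against 6.41, 6.37 and 6.43 (-0.40, adjusted p = 0.0124). The call was lost without CD73+ A, CD73+ B, CD73- A or CD73- D for Satb1, Txk, Rasgrp2 and Flt3l (0.0504 to 0.118), and without CD73+ B (0.0582) or CD73- D (0.0507) for Themis. Prrt2, known for its role at synapses, had the largest negative difference at a low level: 1.98, 1.87 and 0.85 against 3.91, 2.81 and 3.08 (-1.70, SE 0.32, adjusted p = 0.0189; 0.109 without CD73- A). Prrg1 (-0.46, adjusted p = 0.039), D1Ertd622e (-0.37, 0.016), D10Wsu102e (-0.36, 0.0126) and Zfp866 (-0.35, 0.042) were also called lower. Each lost its call when CD73+ A, CD73+ B or CD73- A was left out, and Prrg1 when any library was. Tmie and Als2cl overlap on opposite strands of chromosome 9 and were both called lower (-0.85 and -0.46, adjusted p = 0.0387 and 0.0498; 0.105 to 0.19 without CD73+ A, CD73+ B, CD73- A or CD73- D), so their reads may not be separable.

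Satb1 and Themis were the 2 of 21 tested transcription and selection regulators of naive T cells and thymocytes called lower, and 0 were called higher. The shares over all tested genes were 0.326% lower and 1.08% higher. The median over the 22 measured members was -0.09, 19 of the 21 tested were lower by sign and 7 lay lower without overlap, against 8.42% of all tested genes. This list too was chosen with earlier results of these data known. Bach2, Foxo1, Lef1 and Tcf7, which maintain the naive state, were not past the threshold (-0.09, -0.08, -0.15 and -0.16, adjusted p 0.204 to 0.51). Genes of immature and double-positive thymocytes also held Satb1 and Themis as the 2 called lower of 18 tested, with a median of -0.45 over 21 measured members. Rag1, the recombinase subunit, was 2.10, 2.55 and 1.59 against 2.72, 4.75 and 2.70 (-1.31, adjusted p = 0.17), and Cd8a was 0.68, 2.85 and 0.75 in the CD73- libraries. CD73- B thus stood apart in this list, with a mean log2 CPM of 5.26 against 4.65 and 4.48 in the other CD73- libraries and 4.39 to 4.41 in CD73+ libraries, and whether its immature transcripts affect other values was not tested.

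The cell cycle list had no call of 24 tested, 21 were higher by sign, 14 were higher in all 3 letter pairs, and the median was 0.24. Its mean log2 CPM was 3.26, 3.48 and 3.18 in CD73+ and 2.84, 3.42 and 2.83 in CD73- libraries, higher in the CD73+ library of each letter, with CD73- B within the CD73+ range. Without CD73- B, 3 members were called higher. Mki67, the proliferation marker, was 6.03, 6.50 and 5.77 against 5.45, 6.32 and 5.10 (0.48, adjusted p = 0.371), and the groups overlapped.

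Maturation and egress genes were called in both directions but were mostly lower by sign: of 21 tested, 2 were called higher (Il7r and the class I gene H2-Q6, which has near-identical copies and an adjusted p of 0.0826 to 0.12 without CD73+ A, CD73+ D or CD73- A) and 3 lower, all 3 of them Gimap genes, which encode small GTPases of lymphocyte survival. Over all tested genes 1.08% were called higher and 0.326% lower. By sign 17 of the 21 were lower and 4 higher, and the median over the measured members was -0.093. Without overlap 8 lay lower and 3 higher, against 8.42% and 9.8% of all tested genes. Gimap4 was 8.75, 8.74 and 8.72 against 8.93, 9.10 and 9.0 (-0.27, adjusted p = 0.0189). Gimap6 was 9.0, 8.74 and 8.98 against 9.32, 9.09 and 9.29 (-0.33, adjusted p = 0.0422). Gimap3 was 9.22, 9.15 and 9.21 against 9.49, 9.37 and 9.43 (-0.24, adjusted p = 0.0276). All 8 Gimap genes were lower by sign and 5 lay lower without overlap, against 8.42% of all tested genes. Of the 8, 3 were called lower, against 0.326% of all tested genes. These 3 lie together on chromosome 6 between 48684549 and 48770851. The summed CPM of the family was 2026.7 to 2123.6 in CD73+ and 2417.4 to 2508.4 in CD73- libraries. Without CD73+ A, CD73+ B or CD73- D, 0 Gimap genes were called, without CD73- A 1, without CD73+ D 2 and without CD73- B 3. The family was chosen after the values were seen.

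The gene families chosen after the values were seen gave the counts below. Over all tested genes, 1.08% were called higher and 0.326% lower, and 50.6% were higher by sign. Of 80 tested ribosomal protein genes, 12 were called higher and 0 lower, 78 were higher by sign, and the median difference was 0.15; their summed CPM was 30521 to 31416 in CD73+ and 27272 to 28253 in CD73- libraries. Of 63 histone-cluster genes, 6 were called higher and 0 lower, the median was 0.37 and 60 were higher by sign. Without CD73+ A, 0 ribosomal protein and 2 histone genes were called, and without CD73- D 3 and 2. Without CD73+ B the counts were 6 and 2, without CD73- A 5 and 2, without CD73+ D 6 and 7, and without CD73- B 13 and 11. Under quantile normalisation 24 ribosomal protein genes were called higher, and under median centring 8. Ribosomal proteins and histone genes have near-identical copies, and whether the authors' counting could split them was not tested. Of 90 tested subunit genes of the respiratory chain and ATP synthase, 0 were called (median 0.11), and of 323 tested Zfp genes, 1 was called lower and 0 higher, with a median of -0.087. Among the glycolytic enzymes, Gapdh was called higher (0.27, adjusted p = 0.0196; 0.0805 to 0.108 without CD73+ A, CD73+ B, CD73- A or CD73- D) of 18 tested, 16 of them higher by sign. In sterol synthesis (23 tested), interferon response (24) and immediate early genes (16), 0 were called. The mean log2 CPM of the immediate early list was 7.26, 6.89 and 7.64 in CD73+ and 7.17, 6.70 and 7.55 in CD73- libraries. It was higher in the CD73+ library of each letter, and the closing section gives its counts with the letter as a block.

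**Figure D4:**
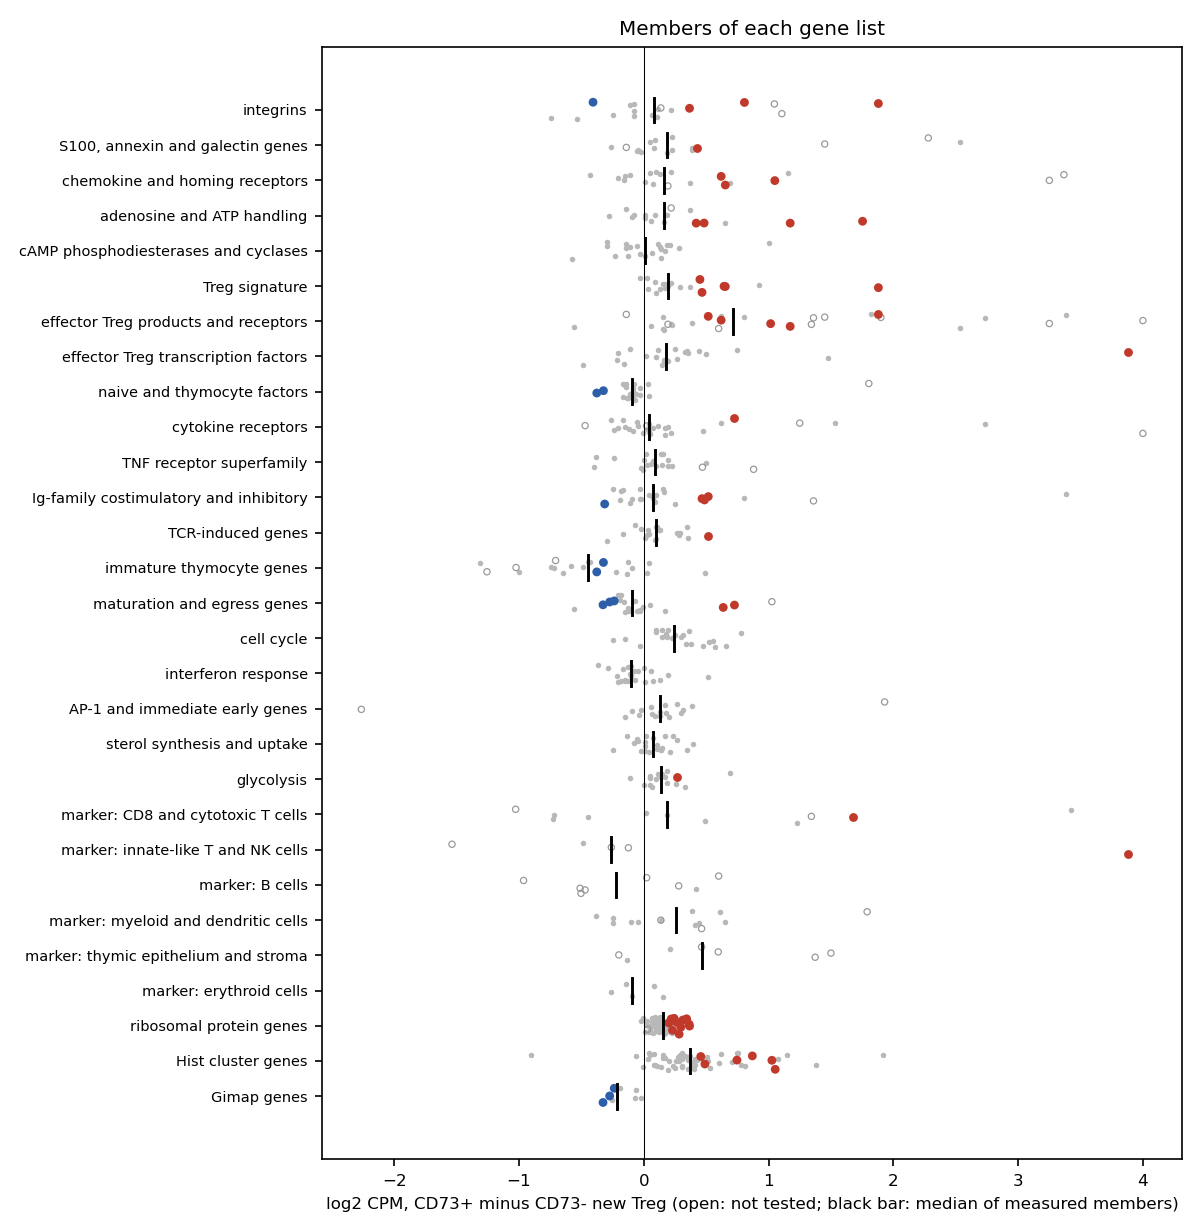
Each row gives the log2 difference (CD73+ minus CD73-) of every measured member of a gene list described in the text, with open circles for members not tested and a line at the median. Most lists have a median within 0.2 of 0. Effector and tissue Treg products (0.71, 19 of 28 tested), immature thymocyte genes (-0.45) and epithelial and stromal markers (0.46, 2 of 7 tested) lie furthest from 0. For effector and tissue Treg products the median is 0.45 over the members tested through both groups.

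Markers of other cell types were summed in each library. The 11 measured of 12 listed CD8 and cytotoxic T cell markers summed to 125.28 to 131.15 CPM in CD73+ and 108.57 to 117.00 CPM in CD73- libraries, with Nkg7 called higher, and the 5 measured of 13 innate-like T and NK cell markers to 3.11 to 4.82 against 2.0 to 3.92, with Zbtb16 called. Zbtb16, tested through the CD73+ group alone, was the 1 gene of these 5 that was higher by sign, and their median difference was -0.26. B cell markers (8 of 10) summed to 3.89 to 6.29 against 4.20 to 6.99, myeloid and dendritic markers (14 of 16) to 52.06 to 59.23 against 38.24 to 68.17, and erythroid genes (5 of 8) to 90.41 to 112.78 against 98.48 to 119.25. Epithelial and stromal markers (7 of 15), led by Pecam1, summed to 204.68 to 234.48 against 217.14 to 266.98. Nearly all of that sum came from the 2 tested members (201.5 to 233.44 against 216.04 to 266.07), so it does not describe the list as a set. The cytotoxic set is the only list of the 6 whose groups did not overlap, and its part in the result was not tested. Fewer cells of a type and less RNA per cell cannot be told apart in bulk samples.

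The genes called here were set beside the authors' deposited table of the other comparison, tdTomato- Treg against Tconv, which uses different libraries, was scaled separately and gates Tconv as CD73-. Of the 116 genes higher in CD73+ cells, 90 were also higher in tdTomato- Treg than in Tconv in that table (77.6%, against a background of 26.5% of genes; 3.16% of the 2846 genes called there), and 12 were lower (10.3%, background 27.2%; 0.412% of 2915). Those 12 were Zbtb16, Chn2, Hist2h3b, Hist1h2ab, Hist1h4m, Il7r, Klhdc2, Igfbp4, Hist1h3f, Pitpnm2, Pcbp1 and Pabpc1. Of the 35 genes lower in CD73+ cells, 25 were lower there (71.4%; 0.858% of 2915) and 6 higher (17.1%; 0.211% of 2846), the latter Smc4, Ift80, Gimap3, Slamf6, Arhgap20 and Prrt2. Mean log2 CPM of the deposited values was 9.05 for Ttn, 7.79 for Itgae, 11.06 for Ahnak and 7.15 for Itgb8 in tdTomato- Treg, and -0.47, 0.78, 6.74 and 0.36 in Tconv. For Il7r it was 7.75 and 8.17.

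**Figure D5:**
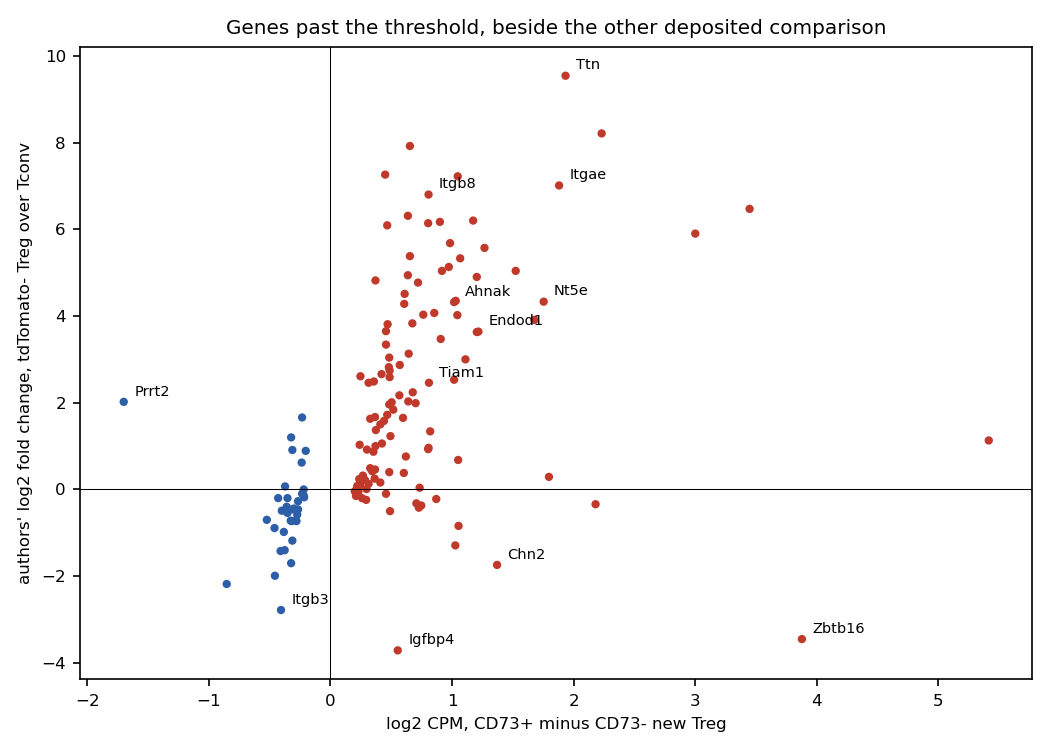
For the 151 called genes, the horizontal axis gives the log2 difference here (CD73+ minus CD73-) and the vertical axis the authors' log2 fold change of tdTomato- Treg over Tconv. The values come from different libraries scaled separately, and 90 of the 116 genes higher here are also higher there.

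By position, chromosome 17 held 13 of the 116 genes called higher (11.2%, against 5.23% of tested genes) and chromosome 6 held 6 of the 35 called lower (17.1%, against 4.50%), 3 of the latter being the Gimap genes. Neighbouring called genes included Hist1h4c, Hist1h2ab and Hist1h4b on chromosome 13, Cenpb and Cdc25b on chromosome 2, and Ift80 and Smc4 on chromosome 3, which lie 167 bases apart and were both lower.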

How the data were processed

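Sorted CD4+ thymocytes gave 12 RNA libraries in 4 groups of 3, of which 6 are compared here. Per the submitters' processing notes, the tools were STAR, RSEM and limma and the build mm10, and no versions are given in the sources used here. Deposited values are log2 CPM with an offset of 0.5 count, read from the values, in 2 tables of 6 libraries that the authors scaled separately. For each table the authors deposited a comparison too, with its fold change (log2), t statistic (a score), p-value and false discovery rate. Gene members and lists were chosen with earlier results of these data known.

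The 6 libraries entered a limma model (limma 3.58.1, R 4.3.3) of the log2 values with no block, an intensity trend and two-sided moderated tests. A gene was tested when 3 or more of the 6 libraries had a log2 CPM of 0 or higher, with Benjamini-Hochberg adjustment and a threshold of 0.05. Estimated counts were recovered as CPM times effective depth, less the offset. Values have no molecular identifiers behind them. Named genes are the gate and marker genes, the 12 highest and 12 lowest differences at a mean log2 CPM of at least 2, and up to 4 called members of each list and direction; genes outside that rule were named after their values were seen. Annotation was GENCODE M21 for GRCm38. Scripts were tested on simulated data. Alternatives are in the closing section. The counts of 1 gene list are not reported here.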

Additional observations from a re-analysis of the deposited data

How the results depend on the processing

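With all 6 libraries 116 genes were called higher and 35 lower. No filter on low values (113 and 30), a stricter filter (114 and 35) and log2(CPM + 1) (129 and 42) stayed within 1.5 times of these counts, and median centring gave 94 and 34. Quantile normalisation gave 114 and 23, a fit on all 12 libraries 181 and 75, and no intensity trend 8 and 0. Leaving out 1 library gave 23 to 147 genes higher and 3 to 54 lower, and leaving out both libraries of a letter gave 6 and 0 (A), 68 and 24 (B) and 37 and 11 (D). No called gene named by the rule changed sign under these settings. Values near 0 without a call did: Akap13 was 0.01 under quantile normalisation against -0.03, and Cd74, at -0.05 with all 6 libraries, lay at 0.02 to 0.11 in 5 fits with libraries left out. The cause of these shifts was not tested.

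With the letter as a replicate block, 430 genes were called higher and 414 lower, and all 151 genes kept their call. In that fit 7 of the 24 cell cycle genes were called higher, against 0 without the block, 51 ribosomal protein genes against 12, 17 histone-cluster genes against 6, 14 Treg signature genes against 5, and 9 naive and thymocyte transcription factors lower against 2. Of the immediate early genes 6 were called higher and 1 lower with the block, and of the genes induced by T cell receptor signals 6 and 1. Other lists had calls in both directions. Cytokine receptors had 4 higher and 5 lower, chemokine and homing receptors 4 and 3, and immunoglobulin-family receptors 4 and 4. The cAMP list had 2 and 2, and maturation and egress genes 2 and 8. Whether the letters pair libraries was checked by the correlation of deviations from the group means: over the 10734 tested genes it was 0.174 for A, 0.185 for B and 0.080 for D, so the letters were not taken to pair the libraries. Over the 10189 genes at a log2 CPM of at least 0 in all 6 libraries it was 0.147, 0.262 and 0.207, all above 0.1, so that decision depends on the genes used. In both sets every library correlated best with its own letter, a hint from the data and not from the design.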
